A study of Mus musculus with 6 samples.

Results

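*Orai1*, *Stim1*, *Calm2*, *Calm3*, *Ppp3ca*, *Nfatc1*, *Nfatc2*, *Nfatc3* and *Rcan1* encode successive steps of one signalling route, from calcium entry at the plasma membrane to a transcription factor in the nucleus. These 9 genes were taken by name from the 16381 genes listed in the normalized count table, with earlier results of these data known. The table comes from bulk RNA sequencing of activated group 2 innate lymphoid cells (aILC2s), tissue lymphocytes that make type 2 cytokines such as IL-5 and IL-13. It asked how the transcriptome of these cells differs after 24 h with melatonin, a pineal hormone, from that after 24 h with DMSO, the vehicle in which melatonin was dissolved. Both groups came from the lungs of WT BALB/c mice, which the study's methods give as female and 6 to 8 weeks old and which had received 0.5 µg of the alarmin IL-33 through the nose on each of 3 days. Lineage-negative cells bearing CD45, ST2 and CD127 were then sorted and cultured at 10000 cells per well with 250 µM melatonin (n = 3 samples) or with DMSO (n = 3 samples). Every value below is therefore a comparison within cells already activated by IL-33.

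When a lymphocyte receptor is engaged, inositol trisphosphate empties the calcium store of the endoplasmic reticulum. STIM1 senses the empty store and opens ORAI1, the pore of the calcium release-activated channel, and calcium enters the cell. Calcium-loaded calmodulin then activates calcineurin, a phosphatase whose catalytic subunits include the product of *Ppp3ca*. Calcineurin strips phosphates from the NFAT factors, which move into the nucleus, and RCAN1 binds calcineurin and restrains it. NFAT proteins are best known for driving cytokine genes in T cells and mast cells, and ILC2s use the same factors downstream of several receptors. These are steps of protein activity and localization, whereas the values here are transcript levels.

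Melatonin-treated aILC2s had more transcript of the entry machinery (*Orai1*, *Stim1*), of catalytic calcineurin (*Ppp3ca*) and of the calcineurin inhibitor *Rcan1*, and less of *Calm3* and *Nfatc2*. Of the 9 genes, 4 were higher and 2 were lower with limma at an adjusted p under 0.05, and 3 (*Calm2*, *Nfatc1* and *Nfatc3*) did not pass. Among all 14419 genes tested, 24.5% were higher and 24.7% were lower by the same rule, so changes of this kind were common in these cells. The median log2 fold change was 0.16 over the 9 genes and -0.0046 over all genes tested. In 5 of the 9 genes every melatonin sample lay above every vehicle sample, and in 2 every melatonin sample lay below. Over all genes tested the same was true of 30.0% and 30.3%.

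*Calm2* and *Calm3* show why transcripts can be told apart where their products cannot. Both have a coding sequence of 450 bases including the stop codon, and translated in silico the 149 residues were identical. Their coding bases were 82.7% identical. The stretch below, coding bases 304 to 363 of the canonical Gencode M39 transcripts, is the window of 60 bases, in whole codons and within 1 exon, that differs most. Capitals mark the 14 positions at which the genes do not share a base, 13 of them the last base of a codon. It lies in exon 5 of each gene, at chr17:87742562-87742621 on the minus strand for *Calm2* and at chr7:16651058-16651117 on the minus strand for *Calm3* (GRCm39).
Calm2: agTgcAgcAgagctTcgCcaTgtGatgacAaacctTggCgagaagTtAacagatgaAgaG
Calm3: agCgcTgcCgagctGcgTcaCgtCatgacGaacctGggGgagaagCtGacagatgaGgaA

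The longest run of bases shared by the canonical transcripts of *Calm2* and *Calm3* was 17, shorter than the 25 bases of the shortest read the authors kept after trimming.

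*Rcan1* has alternative starts, and the promoter of its short form is a textbook NFAT target. The first sequence below holds the 250 bases before the start of the short form, at chr16:92400079-92400328 on the minus strand of GRCm38.p6, and the second the 250 bases before a start of the long form, at chr16:92466170-92466419 on the same strand (both RefSeq). Capitals mark the core NFAT motif GGAAA, or TTTCC where it lies on the other strand. The pair is shown because the motif is present in one and not in the other.
Rcan1 short form: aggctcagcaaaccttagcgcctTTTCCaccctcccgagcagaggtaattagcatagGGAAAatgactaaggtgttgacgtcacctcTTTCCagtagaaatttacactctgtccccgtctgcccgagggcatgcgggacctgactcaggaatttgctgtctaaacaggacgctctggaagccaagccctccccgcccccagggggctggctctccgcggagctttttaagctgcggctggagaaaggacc
Rcan1 long form: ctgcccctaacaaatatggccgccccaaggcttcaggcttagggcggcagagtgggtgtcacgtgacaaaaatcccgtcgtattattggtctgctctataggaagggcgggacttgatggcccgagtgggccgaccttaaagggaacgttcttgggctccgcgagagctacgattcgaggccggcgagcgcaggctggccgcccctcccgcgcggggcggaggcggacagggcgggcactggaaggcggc

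The short-form promoter holds 3 matches, beginning 227, 193 and 163 bases before the start. Of 32851 RefSeq promoters of the same length, 55.6% hold at least 1 match on either strand and 6.39% hold 3 or more. RefSeq promoters were matched for 6 of the 9 genes. Those of *Orai1* and *Stim1* hold no match, that of *Calm3* holds 1, those of the 2 *Nfatc3* starts hold 1 and 0, and those of the 2 *Nfatc2* starts hold 3 and 1. A match is a description of letters, and the table gives 1 value per gene, so the starts of *Rcan1* or *Nfatc2* could not be separated.

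The libraries were of similar depth, with between 17056267 and 20511709 estimated counts each, and each of the 9 genes had at least 410 estimated reads in every library. All 12 ILC2 markers examined were listed, each with a mean above 100 normalized counts. Their summed level was between 139599 and 146908 in vehicle samples and between 111411 and 113620 in melatonin samples. *Il2ra*, *Id2*, *Klrg1*, *Il7r*, *Areg* and *Thy1* were lower (limma), *Il1rl1* and *Rora* were higher, and *Gata3*, *Icos*, *Ptprc* and *Il17rb* overlapped between the groups. Of 10 T cell markers, 6 were listed (*Cd4*, *Cd5*, *Cd8a* and *Cd8b1* were not), with sums of 6049 to 6577 in vehicle and 2127 to 3175 in melatonin samples. The 5 NK and ILC1 markers summed to 263 to 343 in vehicle and to 24.1 to 36.1 in melatonin samples, and the 10 myeloid markers to 1489 to 1777 and 366 to 887. Of 5 B cell markers, 2 were listed, with sums of 289 to 322 and 131 to 162. Of 5 mast cell and basophil markers, 2 were listed, at sums of 2.81 to 16.8 and 1.87 to 36.2. Of 6 epithelial markers, 5 were listed, at 890 to 2133 and 1039 to 1237, a sum in which *Epcam* was higher in melatonin samples and the other listed genes were lower or overlapped. *Scgb1a1* was at 95.2, 21.5 and 1045 in vehicle and at 0, 0 and 1.01 in melatonin samples, and *Sftpc* at 155, 122 and 389 and at 6.54, 5.46 and 3.02. Of 5 endothelial and stromal markers only *Pecam1* was listed, at 1001 to 1066 and 310 to 416. The part of these marker transcripts in the results was not tested, and in bulk samples fewer cells of a type and less RNA per cell cannot be told apart.

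The 6 libraries also differed in sex-linked transcripts. The sum of 4 Y-linked genes was between 2679.7 and 3038 normalized counts in the 3 vehicle libraries and in melatonin replicate 1, with *Xist* between 0 and 13.6. In melatonin replicates 2 and 3 the Y-linked sum was 0 and *Xist* stood at 579 and 1091. Since the methods name female mice, 4 libraries carry transcripts that this does not account for. Each of the 9 genes lies on an autosome, and limma was also fitted with a term for melatonin replicates 2 and 3, in which the melatonin arm is replicate 1 alone. That lone sample is assumed to vary like the others, so the fit says what replicate 1 shows and not how stable a call is. It gave log2 fold changes of 0.72 for *Orai1*, 0.54 for *Stim1*, -0.51 for *Calm3*, 0.93 for *Ppp3ca*, -0.88 for *Nfatc2* and 1.09 for *Rcan1*. Ratios, sums and correlations were computed without it. The numbers in the library names run from 20 to 22 for melatonin and from 32 to 34 for vehicle, so any effect of library preparation in separate sets cannot be told apart from the treatment. Nothing in the labels says that the samples came from separate animals, and the p-values then measure only the spread between these samples.

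*Orai1* (ENSMUSG00000049686, chromosome 5 of GRCm39 from 123153043 to 123168535, plus strand) encodes the pore subunit of the store-operated channel. Its normalized counts were 905, 1020 and 1031 in vehicle replicates 1, 2 and 3 and 1618, 1396 and 1501 in melatonin replicates 1, 2 and 3. Every melatonin sample lay above every vehicle sample. The means were 986 ± 69.8 and 1505 ± 111 (SD, n = 3 each), a log2 fold change of 0.61 with a standard error (SE) of 0.09 (limma, adjusted p = 0.000988). Under the 20 alternative settings, which changed 1 step of the processing or left out 1 sample, it stayed between 0.53 and 0.72, and none of them ended the call.

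The other pore genes did not follow it as one. *Orai3* rose from 573 ± 60.7 to 933 ± 133 normalized counts (log2 fold change 0.70, SE 0.13, limma adjusted p = 0.0024). *Orai2* stood at 1342 ± 91.7 and 1283 ± 152, with a log2 fold change of -0.069 (95% interval -0.31 to 0.17, limma adjusted p = 0.612) whose sign turned under 3 of the 20 settings. Per kilobase of canonical transcript, which allows levels of different genes to be set side by side, the 3 pore genes together went from 1126 ± 78.7 to 1553 ± 151 normalized counts. *Orai1* made up 44.1 ± 0.46% of that sum in vehicle and 48.9 ± 1.29% in melatonin samples, and *Orai2* made up 30.5 ± 1.152% and 21.1 ± 1.58%. The ratio of *Orai1* to *Orai2* per kilobase was 1.45 in vehicle and 2.32 in melatonin samples, with no overlap between the groups (exact two-sided permutation p = 0.1, the smallest that 3 samples against 3 can give, and 0.16 after adjustment over the 8 gene pairs compared).

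*Stim1* (ENSMUSG00000030987, chromosome 7 from 101916979 to 102086526, plus strand) encodes the calcium sensor of the endoplasmic reticulum. Vehicle replicates were measured at 1577, 1503 and 1668 normalized counts and melatonin replicates at 2296, 1851 and 1988. All melatonin samples were above all vehicle samples, and replicate 1 was the highest of them. The log2 fold change of 0.36 (SE 0.10, limma adjusted p = 0.0136) was the smallest of the 4 rises. It is also the only one of the 6 calls that depended on a single library, since without vehicle replicate 2 it was 0.33 at an adjusted p of 0.0611 (limma). *Stim2*, the second sensor, went from 760 ± 111 to 962 ± 98.4, with a log2 fold change of 0.34 and a limma adjusted p of 0.0525. *Stim2* passed the threshold under 8 of the 20 settings, and leaving out 1 sample moved its log2 fold change between 0.22 and 0.43. The ratio of *Stim1* to *Stim2* per kilobase was 2.33 in vehicle and 2.36 in melatonin samples, with overlapping groups (exact permutation p = 1.0).

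**Figure D1:**
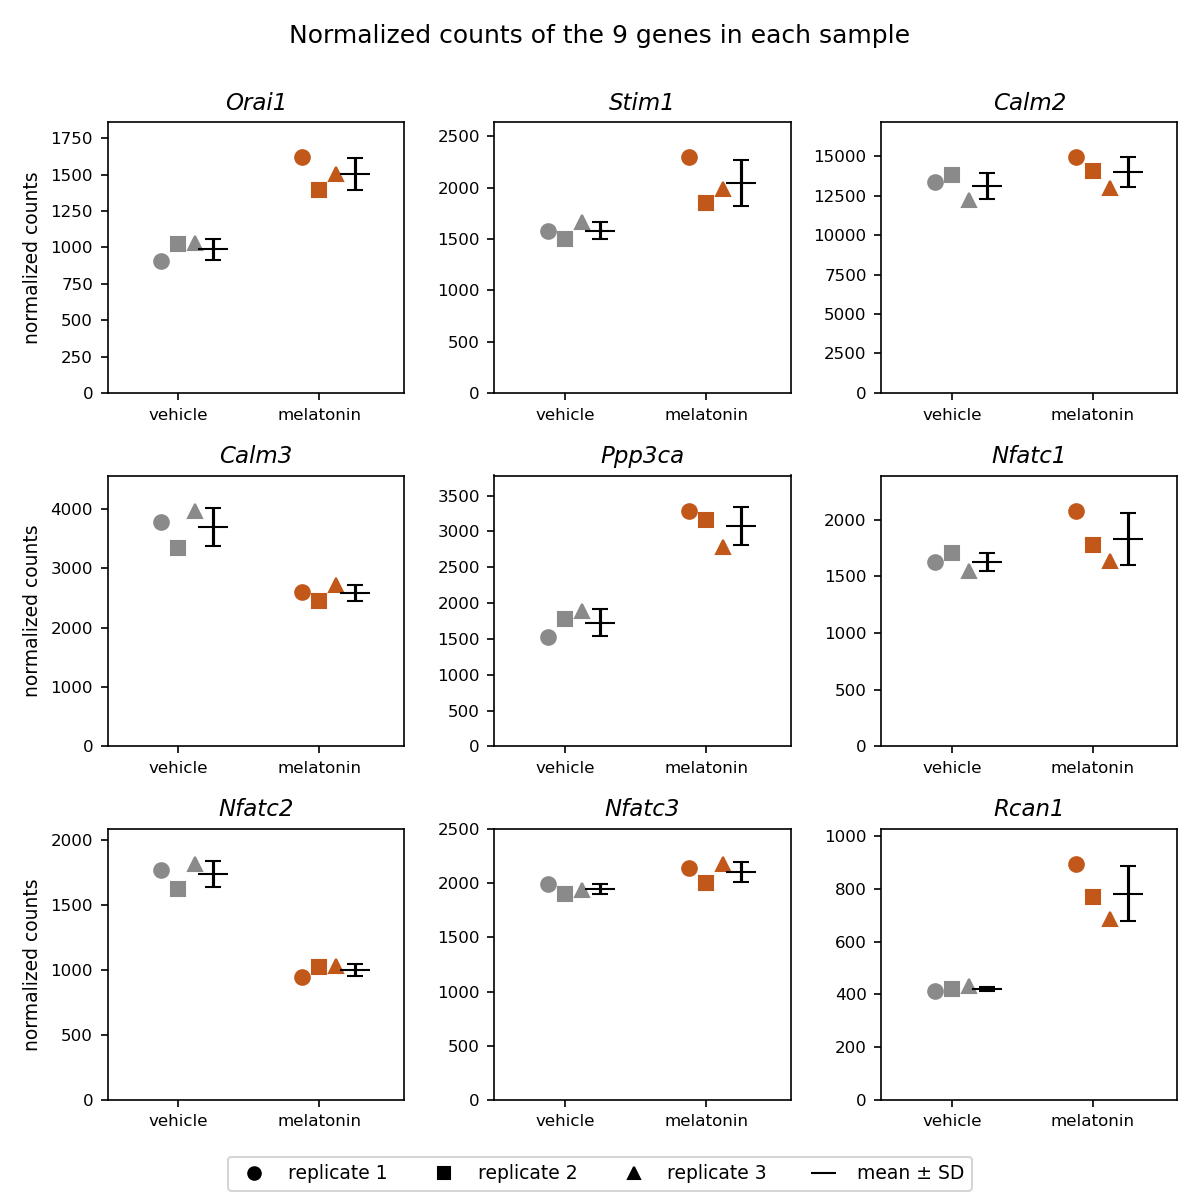
Normalized counts (vertical axes, each starting at 0) of the 9 genes in the 3 vehicle and 3 melatonin samples; symbols give the replicate number, and the bar beside them the mean and SD. *Orai1*, *Stim1*, *Ppp3ca*, *Nfatc3* and *Rcan1* lie higher in every melatonin sample, *Calm3* and *Nfatc2* lie lower in every one, and *Calm2* and *Nfatc1* overlap.

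*Calm2* (ENSMUSG00000036438, chromosome 17 from 87740829 to 87754363, minus strand) was the most abundant of the 9 genes. Its normalized counts were 13391, 13805 and 12220 in vehicle and 14927, 14069 and 12982 in melatonin samples, and the groups overlapped. Its log2 fold change was 0.090, with a 95% interval from -0.10 to 0.29 (limma adjusted p = 0.406). Leaving out 1 sample moved it between 0.039, without vehicle replicate 3, and 0.14, without melatonin replicate 3. Corrections for sequence properties moved this value. It was -0.036 after a correction for GC content and 0.34, past the threshold at a limma adjusted p of 0.0216, after a correction for transcript length.

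*Calm3* (ENSMUSG00000019370, chromosome 7 from 16649290 to 16658156, minus strand) encodes the same protein and behaved differently at the transcript level. Its values were 3778, 3347 and 3965 in vehicle and 2595, 2452 and 2720 in melatonin samples. Every melatonin sample lay below every vehicle sample. This was a log2 fold change of -0.51 (SE 0.09, limma adjusted p = 0.00168), which stayed between -0.59 and -0.46 under the 20 settings.

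Per kilobase of canonical transcript, the ratio of *Calm3* to *Calm2* went from 0.142 in vehicle to 0.0935 in melatonin samples. It fell by 0.60 on the log2 scale without overlap (exact permutation p = 0.1, adjusted 0.16).

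*Ppp3ca* (ENSMUSG00000028161, chromosome 3 from 136375445 to 136643491, plus strand) encodes the alpha isoform of the calcineurin catalytic subunit. It was measured at 1524, 1778 and 1884 normalized counts in vehicle and at 3288, 3162 and 2780 in melatonin samples. Every melatonin sample stood far above the vehicle samples. Limma gave a log2 fold change of 0.83 (SE 0.10, adjusted p = 0.00037), and it lay between 0.74 and 0.93 under the 20 settings.

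The other subunits moved otherwise. *Ppp3cb*, the beta isoform, fell from 725 ± 79.5 to 500 ± 27.4 normalized counts (log2 fold change -0.53, SE 0.11, limma adjusted p = 0.00406). *Ppp3cc*, the gamma isoform, was at 1239 ± 176 and 1246 ± 159 (log2 fold change 0.011, 95% interval -0.29 to 0.31, limma adjusted p = 0.951, with a sign that turned under 8 of the 20 settings). *Ppp3r1*, the regulatory subunit that all of them need, was at 3036 ± 146 and 2539 ± 443 (log2 fold change -0.27, limma adjusted p = 0.0857), and melatonin replicate 3 at 3047 lay inside the vehicle range. *Ppp3r1* passed the threshold under 5 of the 20 settings, and without that library its value was -0.41 (limma adjusted p = 0.00518). Among the catalytic transcripts per kilobase, *Ppp3ca* made up 38.2%, 35.8% and 40.4% in the vehicle samples and 58.8%, 52.3% and 51.5% in the melatonin samples. *Ppp3cb* made up 16.1 ± 1.43% and 8.88 ± 0.10%. The ratio of *Ppp3ca* to *Ppp3cb* went from 2.37 to 6.10, the largest difference of the 8 pairs (exact permutation p = 0.1, adjusted 0.16). The catalytic transcripts summed to 922 ± 102 per kilobase in vehicle and 1153 ± 67.4 in melatonin samples.

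*Rcan1* (ENSMUSG00000022951, chromosome 16 from 92188840 to 92267755, minus strand), whose short-form promoter is printed above, had the largest rise of the 9 genes. Its values were 412, 419 and 430 in vehicle and 893, 768 and 686 in melatonin samples. The vehicle samples differed from each other by little, with an SD of 9.35, and the melatonin samples by more, with an SD of 104. The groups lay apart, with a log2 fold change of 0.89 (SE 0.11, limma adjusted p = 0.000446) that reached 1.09 in the fit that rests on melatonin replicate 1. *Rcan3*, a related inhibitor, was at 1047 ± 68.0 and 993 ± 73.8 (log2 fold change -0.076, limma adjusted p = 0.524, with the sign turned in the fit with a term for melatonin replicates 2 and 3). Per kilobase, the ratio of *Rcan1* to *Ppp3ca* was 0.548 in vehicle and 0.569 in melatonin samples, with overlap between the groups (exact permutation p = 0.5).

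The NFAT genes differed from each other. *Nfatc2* (ENSMUSG00000027544, chromosome 2 from 168318330 to 168443693, minus strand), which encodes NFAT1, a factor present in resting lymphocytes, was at 1774, 1626 and 1815 normalized counts in vehicle and 946, 1025 and 1035 in melatonin samples. All melatonin samples lay below all vehicle samples. At -0.79 on the log2 scale (SE 0.08, limma adjusted p = 0.000195) this was the largest fall of the 9 genes, and it lay between -0.88 and -0.67 under the 20 settings.

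*Nfatc1* (ENSMUSG00000033016), which encodes NFAT2, a factor whose short form is itself induced by NFAT, was at 1632, 1705 and 1547 in vehicle and 2079, 1775 and 1633 in melatonin samples. Melatonin replicate 3 lay inside the vehicle range. Its log2 fold change was 0.16, with a 95% interval from -0.069 to 0.39 (limma adjusted p = 0.214). Without melatonin replicate 1 it was 0.066, and the range over samples left out was 0.066 to 0.24. It passed the threshold in the fit with a term for melatonin replicates 2 and 3 (0.35, adjusted p = 0.0178) and after the GC correction (0.27, adjusted p = 0.0476).

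*Nfatc3* (ENSMUSG00000031902, chromosome 8 from 106785472 to 106857175, plus strand), which encodes NFAT4, was at 1997, 1903 and 1934 in vehicle and 2141, 1999 and 2174 in melatonin samples. The groups did not overlap, but the lowest melatonin value and the highest vehicle value were close together. The log2 fold change of 0.11 (95% interval -0.055 to 0.28) did not pass (limma adjusted p = 0.231). *Nfat5*, the member of the family that does not need calcineurin, was at 244 ± 13.2 and 278 ± 9.03 (log2 fold change 0.19, limma adjusted p = 0.212). *Nfatc4* and *Rcan2* are not among the genes listed.

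Summed per kilobase, the transcripts of *Nfatc1*, *Nfatc2* and *Nfatc3* were at 915 ± 12.6 in vehicle and 875 ± 43.5 in melatonin samples, with overlap (exact permutation p = 0.3). Their shares moved. *Nfatc2* made up 28.0%, 26.2% and 29.3% of the sum in vehicle and 15.0%, 17.7% and 17.8% in melatonin samples. *Nfatc1* made up 37.4 ± 1.88% and 43.8 ± 3.43%, and *Nfatc3* 34.8 ± 0.43% and 39.4 ± 2.14%. The ratio of *Nfatc2* to *Nfatc1* went from 0.744 to 0.383 and that of *Nfatc2* to *Nfatc3* from 0.800 to 0.426, both without overlap (exact permutation p = 0.1 each, adjusted 0.16). The ratio of *Nfatc1* to *Nfatc3* was 1.08 and 1.11, with overlap (exact permutation p = 0.8).

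**Figure D2:**
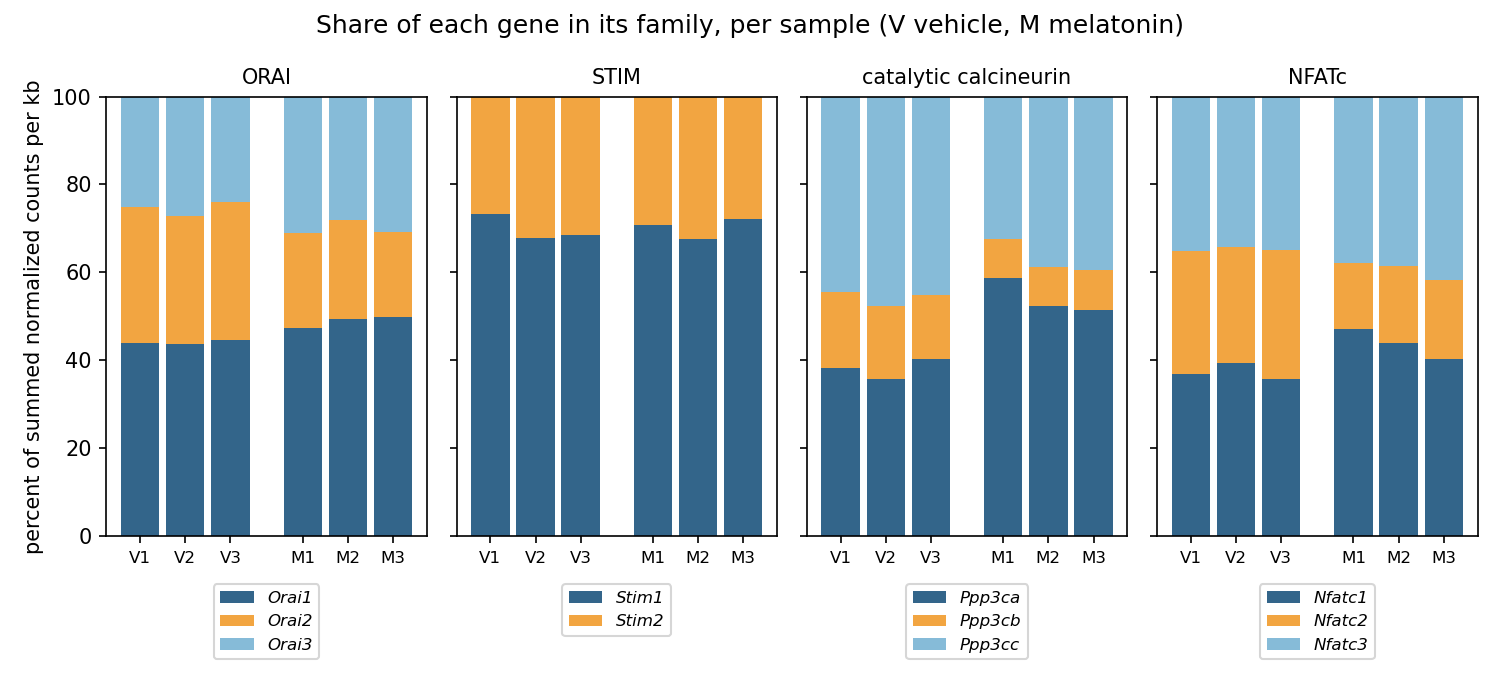
Share of each gene (vertical axis, percent) in the summed normalized counts per kilobase of its family, for vehicle samples V1 to V3 and melatonin samples M1 to M3. *Ppp3ca* takes 35.8% to 40.4% of catalytic calcineurin transcripts in vehicle and 51.5% to 58.8% in melatonin samples, *Nfatc2* takes a smaller share of the NFAT genes in every melatonin sample, and the STIM shares overlap.

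Set side by side per kilobase, the levels in vehicle samples ran from *Calm2* (10805 ± 676 normalized counts per kilobase) through *Calm3* (1536 ± 132) and *Orai1* (497 ± 35.1) to *Rcan1* (192 ± 4.26). Between them, *Stim1* (356 ± 18.6), *Ppp3ca* (351 ± 37.6), *Nfatc1* (342 ± 16.7) and *Nfatc3* (318 ± 7.80) each overlapped the next in this order, and *Nfatc2* (255 ± 14.6) lay below them. In melatonin samples *Calm2* (11507 ± 802), *Calm3* (1076 ± 55.8) and *Orai1* (758 ± 55.9) again came first. *Ppp3ca* (625 ± 53.7) then stood above *Stim1* (460 ± 51.3), which overlapped *Nfatc1*. *Nfatc1* (384 ± 47.9), *Rcan1* (357 ± 47.5) and *Nfatc3* (344 ± 15.2) lay within an SD of each other. *Nfatc2* (147 ± 7.16) was the lowest of the 9, the place that *Rcan1* held in vehicle samples.

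**Figure D3:**
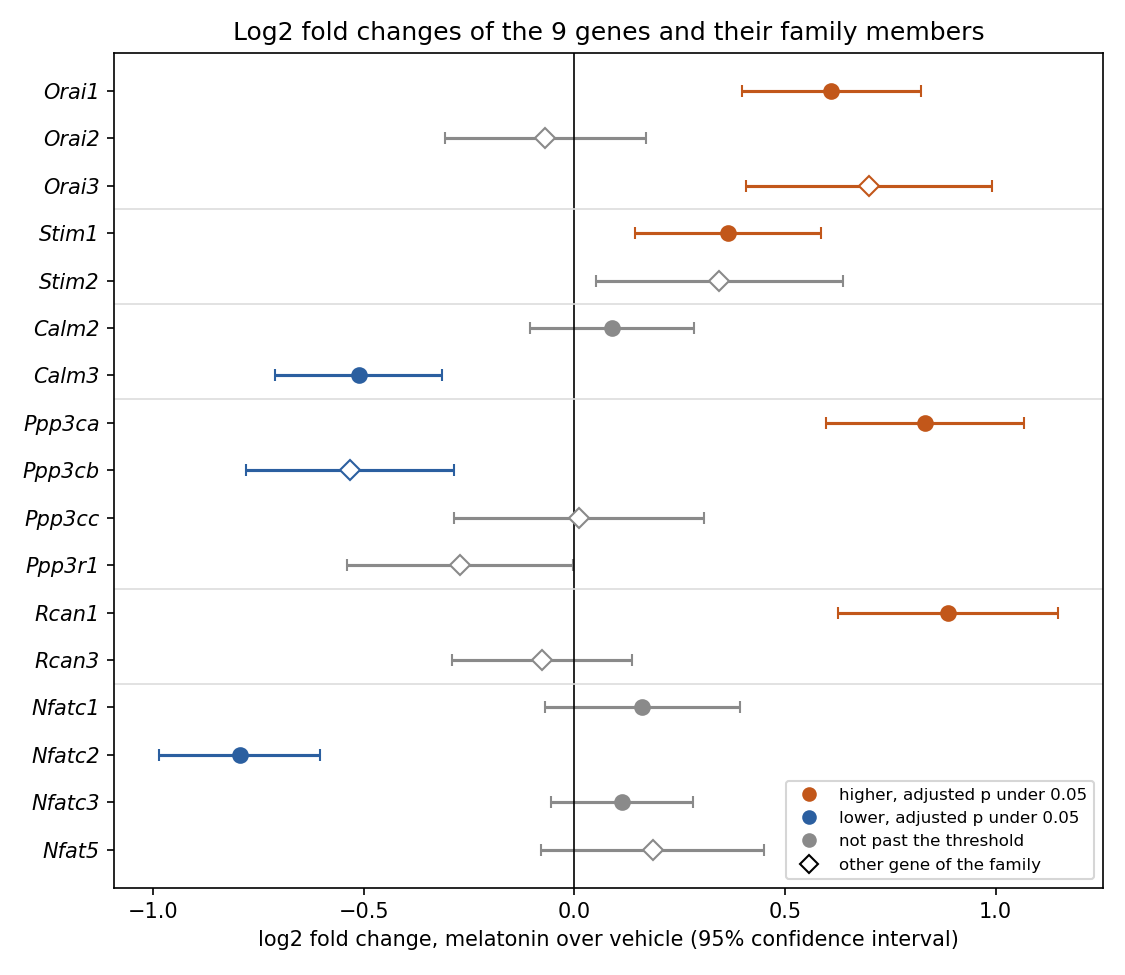
Log2 fold change of melatonin over vehicle (horizontal axis) with its 95% confidence interval from limma, for the 9 genes (filled circles) and other genes of their families (open diamonds), coloured by the call. Members of 1 family lie on both sides of 0, as with *Ppp3ca* at 0.83 and *Ppp3cb* at -0.53.

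Of the 9 genes, 5 (*Orai1*, *Calm2*, *Ppp3ca*, *Nfatc2* and *Nfatc3*) share exon sequence with an annotated gene on the opposite strand, and the sources used here do not give a strand for the counting. None of the 5 partners (*Gm2479*, *Gm65472*, *Gm56786*, *Gm74613* and *Esrp2*) is among the genes listed. The overlaps were read from Gencode M39, whereas the authors assigned reads to Gencode M33. A gene not annotated in M33 could not be listed, so absence from the list is no measure of a partner's level. Without strand, reads from the shared bases could not be told apart.

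Across the 6 samples, which fall into the treatment groups, *Rcan1*, *Ppp3ca* and *Orai1* were correlated with each other. Pearson's r of the log2 values was 0.98 for *Rcan1* and *Ppp3ca* and 0.97 for *Orai1* and *Ppp3ca*. *Nfatc2* ran opposite to each of them, with an r of -0.98 with *Rcan1* and -0.97 with *Orai1*. *Calm2* and *Nfatc1*, the genes that overlap between groups, had an r of 0.93 with each other. Among the 9990 tested genes whose mean reached 100 normalized counts, the gene most like *Rcan1* over the 6 samples was *Appl2*, that most like *Ppp3ca* was *Rhoq*, that most like *Nfatc2* was *Gm12989* and that most like *Orai1* was *Rnd1*. The same search gave *Cnot6l* for *Stim1*, *Rps19-ps6* for *Calm3*, *Golga4* for *Nfatc3*, *Lonrf3* for *Nfatc1* and *Zfp667* for *Calm2*, and r was between 0.995 and 0.9997 over the 9. An r of at least 0.95 was shared with 1340 genes for *Rcan1* and with 10 for *Calm2*, so a close match was common for the genes whose groups were far apart.

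The genes around these 9 were read from 12 lists of the pathway. Besides the 9 genes the lists held 97 tested genes, of which 19 were higher, 31 were lower and 47 did not pass, with a median log2 fold change of -0.076. As shares these stand beside the 24.5% higher and 24.7% lower over all genes tested. Both the 19 and the 31 include genes that reached the filter of 10 normalized counts only in the group where they were higher. Without the list of NFAT-driven genes, 16 of 75 were higher and 18 were lower, with a median of 0.011, and each of these counts still includes such a gene. In the fit with a term for melatonin replicates 2 and 3, the counts over the 97 genes were 21 higher and 29 lower. The calcineurin subunit and NFAT factor lists, whose listed genes are described above, had medians of -0.13 and 0.14.

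Upstream of entry, 2 of 11 tested genes of store release were higher and 2 were lower, with a median log2 fold change of 0.12. The lower count includes a release channel gene that reached the filter in vehicle samples alone, and *Itpr1* was the other lower gene. *Plcb4* and *Plcb3*, phospholipases that make inositol trisphosphate, rose by 0.90 and 0.68 on the log2 scale (limma adjusted p = 0.00103 and 0.00306). *Itpr1*, a receptor channel through which the store empties, fell from 1816 ± 70.9 to 912 ± 209 normalized counts (log2 fold change -1.02, limma adjusted p = 0.00085).

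The store-operated entry list, which holds *Orai1* and *Stim1*, had 5 of 11 genes higher and 1 lower, with a median of 0.34. Besides *Orai1*, *Stim1* and *Orai3* it held *Saraf*, which slows store-operated entry and rose from 5260 ± 155 to 8269 ± 1368 normalized counts (log2 fold change 0.64, limma adjusted p = 0.00184). *Esyt1*, a tether between the endoplasmic reticulum and the plasma membrane, fell by 0.52 on the log2 scale (limma adjusted p = 0.000945).

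Among calcium pumps and exchangers 2 of 7 were higher and 1 was lower, with a median of 0.37. *Atp2b4*, a plasma membrane pump that extrudes calcium, was at 1128, 961 and 853 normalized counts in vehicle and at 95.2, 119 and 224 in melatonin samples. This was the largest fall among the pump genes (log2 fold change -2.83, SE 0.28, limma adjusted p = 0.000131). *Atp2c1*, a pump of the Golgi, rose by 0.58 (limma adjusted p = 0.00136). *Slc8b1*, the mitochondrial sodium-calcium exchanger, rose by 0.59 (limma adjusted p = 0.0191), a call lost without vehicle replicate 2 (adjusted p = 0.0775).

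Of 7 genes of the mitochondrial uniporter, 1 was higher and 1 was lower, with a median of -0.011. *Mcur1* rose by 0.71 (limma adjusted p = 0.0289), and this call was lost without vehicle replicate 2, melatonin replicate 2 or melatonin replicate 3 (adjusted p of 0.0519, 0.0928 and 0.0513), in the fit with a term for the latter pair (0.66, adjusted p = 0.131) and in limma without the trend (adjusted p = 0.0841). Leaving out 1 sample moved its log2 fold change between 0.42, without vehicle replicate 1, and 0.93, without vehicle replicate 3. *Smdt1*, which encodes the EMRE subunit, had a log2 fold change of -0.35 (limma adjusted p = 0.0045) that turned to 0.078 with the transcript length correction.

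Other calcium and potassium channels of lymphocytes included 2 of 9 that were higher and 4 that were lower, with a median of -0.41. *P2rx4*, an ATP-gated channel, rose from 723 ± 49.97 to 1678 ± 159 normalized counts (log2 fold change 1.21, limma adjusted p = 6.41e-05). *Kcnn4*, a calcium-activated potassium channel that holds the membrane potential for calcium entry, was at 2740, 2951 and 2956 in vehicle and 486, 826 and 860 in melatonin samples. Its log2 fold change was -2.04 (limma adjusted p = 0.000112). *Piezo1*, a mechanosensitive channel, fell by 0.89 (limma adjusted p = 0.00253). *Trpm4* rose by 0.55 (limma adjusted p = 0.0163), a call that was lost without vehicle replicate 2 (adjusted p = 0.0621) or melatonin replicate 2 (0.0605) and in the fit with a term for melatonin replicates 2 and 3 (0.22, adjusted p = 0.208).

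In the list of calmodulin-dependent kinases, which also holds a gene for an inhibitor of them, 4 of 9 were higher and 2 were lower, with a median of 0.43. The higher count includes the inhibitor gene, which reached the filter of 10 normalized counts in the melatonin group alone. With a pseudocount of 0.1 the higher count was 3. *Camk2d* and *Camkk1* rose by 0.57 and 0.63 (limma adjusted p = 0.000769 and 0.0139), the latter not without vehicle replicate 3 (adjusted p = 0.0506). *Camk1* and *Camk4* had log2 fold changes of -0.35 and -0.24 (limma adjusted p = 0.0327 and 0.0236). Leaving out any 1 of 5 libraries ended the *Camk1* call (adjusted p between 0.0523 and 0.114), and any vehicle library or melatonin replicate 2 ended that of *Camk4* (between 0.0622 and 0.0775). Both calls were also lost in the fit with a term for melatonin replicates 2 and 3 (adjusted p = 0.109 and 0.0691), and that of *Camk1* with the length and GC corrections (0.165 and 0.125).

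Of 11 calcineurin inhibitors and anchors, *Rcan1* among them, 2 were higher and 4 were lower, with a median of -0.30. *Fkbp8*, which encodes an immunophilin of the mitochondrial membrane, fell from 11550.4 ± 361 to 6389 ± 290.1 normalized counts (log2 fold change -0.85, limma adjusted p = 7.3e-05). *Homer3*, a scaffold that can compete with calcineurin for NFAT, had a log2 fold change of -0.67 (limma adjusted p = 0.0198). The *Homer3* call was lost without vehicle replicate 2, vehicle replicate 3 or melatonin replicate 2 (adjusted p of 0.0717, 0.0570 and 0.0550) and in the fit with a term for melatonin replicates 2 and 3 (-0.26, adjusted p = 0.271). Of 9 kinases that return NFAT to the cytoplasm, 1 was higher and 2 were lower, with a median of -0.14. *Csnk1d* rose by 0.47 (limma adjusted p = 0.00212), and *Dyrk3* and *Csnk1a1* had log2 fold changes of -0.71 and -0.31 (limma adjusted p = 0.00265 and 0.00711).

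Downstream, 24 genes known as NFAT-driven in T cells were tested, of which 4 were higher, 13 were lower and 7 did not pass, with a median of -0.79. These numbers lean on 6 genes that reached the filter of 10 normalized counts in vehicle samples alone, 5 of them lower. Without the 6, a choice made after seeing the data, 4 of 18 were higher and 8 were lower, with a median of -0.39. With the 6 kept but without *Rcan1* and *Nfatc1*, the counts were 3 higher and 13 lower of 22, with a median of -0.85. These numbers too lean on the 6, since the 13 include the 5 lower genes among them. *Il13*, a type 2 cytokine, was at 1952, 1758 and 1918 normalized counts in vehicle and 340, 363 and 525 in melatonin samples (log2 fold change -2.22, limma adjusted p = 3.1e-05). *Irf4*, a transcription factor of activated lymphocytes, was at 3026, 2728 and 2992 in vehicle and 468, 1249 and 1328 in melatonin samples (log2 fold change -1.66, limma adjusted p = 0.00374). The size for *Irf4* rested on melatonin replicate 1, being -1.18 without it and -2.64 in the fit with a term for the other two. *Tnfrsf9*, the costimulatory receptor 4-1BB, went the other way, from 2178 ± 168 to 7728 ± 2197 (log2 fold change 1.79, limma adjusted p = 0.000109). *Ifng*, a type 1 cytokine, was at 76.5, 32.8 and 37.8 normalized counts in vehicle samples, and *Fasl*, a death ligand, at 26.1, 19.7 and 23.1. Both were at 0 in every melatonin library and are named for that reason, after their values were seen. They were at least 16.2-fold and 7.58-fold lower against a floor of 3 reads per library. Both bounds lie below the median of the 24 genes, which is therefore -0.79 with them by construction. *Xcl1*, *Ccl3* and *Ccl4*, chemokine genes that with *Ifng* and *Fasl* make up the 5 and were likewise named after their values were seen, went from means of 75.1, 129.6 and 141 to 1.34, 2.40 and 2.07. NK cells and ILC1s also express these 5 genes, and the part of the lower NK and ILC1 marker sum in their values, and so in the count and median of the list, was not tested. The sort, to a stated purity above 95%, was set to leave out cells bearing CD335, a receptor of NK cells and ILC1s. Its gene *Ncr1*, an NK and ILC1 marker, was at 104, 101 and 114 normalized counts in vehicle and at 0, 0 and 1.01 in melatonin samples. Whether such cells remained after the sort was not tested.

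**Figure D4:**
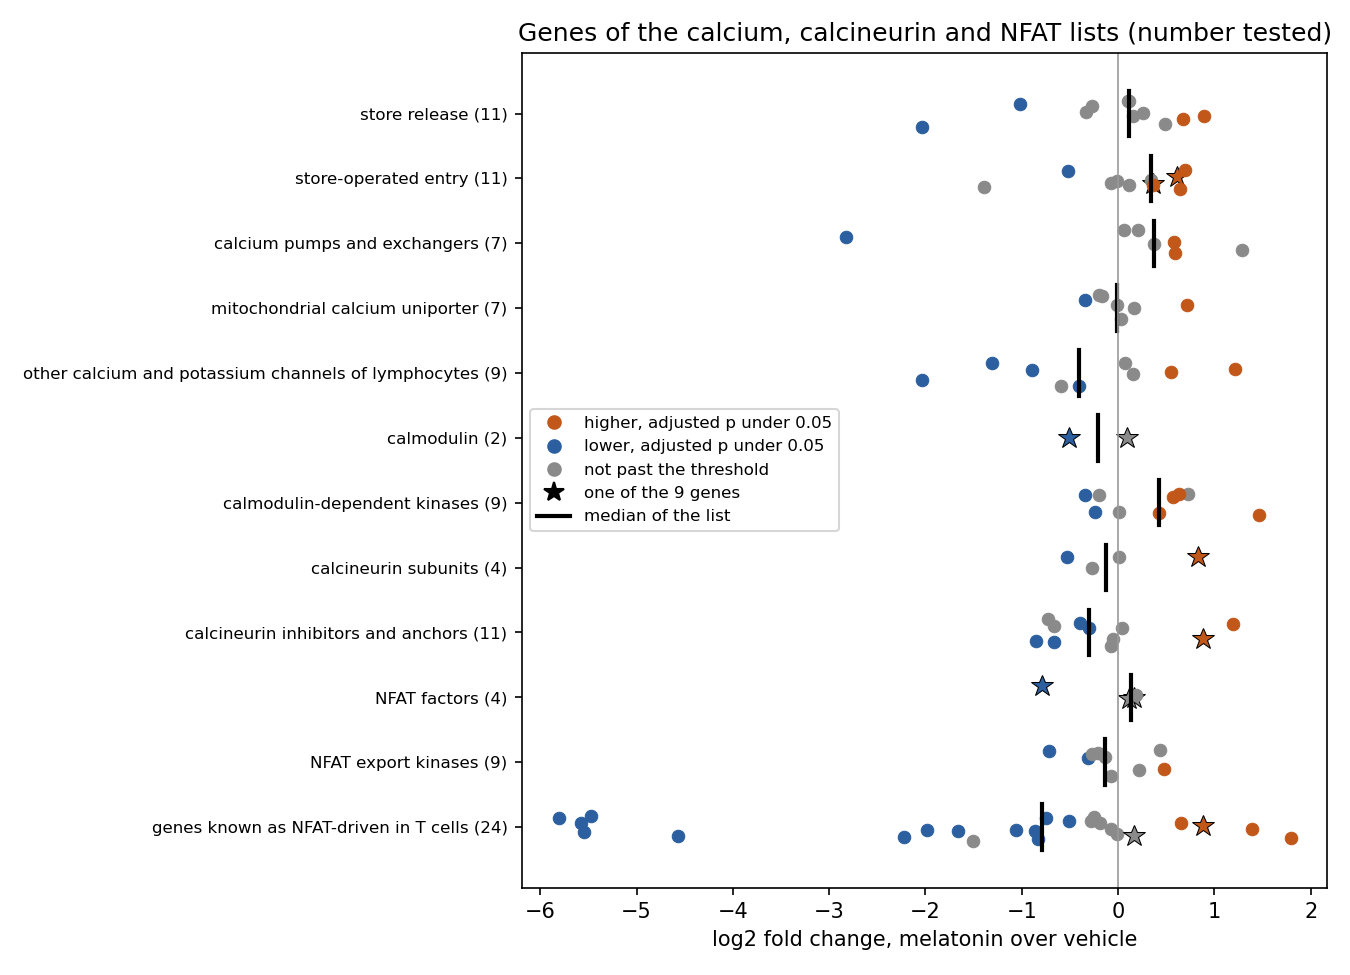
Log2 fold change of melatonin over vehicle (horizontal axis) for every tested gene of the 12 lists, with the number tested in brackets, the 9 genes as stars, the list median as a bar and the call as colour. Most lists spread to both sides of 0, and the NFAT-driven list has a median of -0.79, or -0.39 without 6 genes that reached the filter in vehicle samples alone. Its 2 genes at 0 in every melatonin library are drawn at their fitted values, which are no measure of size.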

How the data were processed

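Bulk RNA sequencing was done on 3 melatonin and 3 vehicle samples of aILC2s, with libraries from the SMARTer Ultra Low Input kit. The RNA input is 10 pg in the methods and 10 ng in the labels. In Partek Flow, the authors trimmed reads to a Phred score of 35, discarded those under 25 bp, ran STAR against mm39 and assigned reads to genes (Gencode M33) by expectation maximization. The methods state that genes under 10 counts in all samples were removed, but of the 16381 genes listed 14419 reached a normalized count of 10 in any sample. The deposited values are a signal, each estimated count divided by its sample's median-ratio size factor, and are called normalized counts here. The value of 1 read was found from the spacing of low values. Among values under 60, between 72.0% and 73.6% per library were whole multiples of it (tolerance 0.01), so whole reads were not recovered and no count test was run.

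Groups were compared with limma 3.58.1 in R 4.3.3 (lmFit, eBayes with trend) on log2 values after a pseudocount of 1 was added. Treatment was the sole term, and genes that reached 10 in 1 sample or more entered. Fold changes on this scale understate those of low genes. Benjamini-Hochberg adjustment covered 14419 genes, with a threshold of 0.05. Ratios and sums were compared by the exact two-sided permutation test. Positions and transcript lengths came from Gencode M39 on GRCm39, which named 16334 of the genes, and promoters from RefSeq on GRCm38.p6. Python 3.11.15, pandas 2.3.3, numpy 2.4.6, scipy 1.17.1 and matplotlib 3.10.9 were used.

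The 9 genes and the lists were chosen with earlier results of these data known, and 2 genes of the lists are not reported here. Genes named are the 9 genes, the other genes of their families, from each list up to 2 of the largest rises and 2 of the largest falls past the threshold whose mean reached 100, and for each of the 9 genes the gene most like it. *Ifng*, *Fasl*, *Xcl1*, *Ccl3* and *Ccl4* were named outside this rule, after their values were seen. Replicates of a group differed by more than counting noise. The alternatives were pseudocounts of 0.1 and 10, no filter or a mean filter of 100, total, upper quartile and quantile scaling, corrections for transcript length and GC content (lowess, span 0.3), limma without trend, with sample weights or with voom on estimated counts, the replicate number as a block, a term for melatonin replicates 2 and 3, and each sample left out.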

Additional observations from a re-analysis of the deposited data

How the results depend on the processing

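Over the 9 genes and 20 alternatives, 175 of 180 log2 fold changes kept their direction and their side of the threshold. The 5 others were *Stim1* without vehicle replicate 2 (0.33, range over samples left out 0.28 to 0.43), *Calm2* with the transcript length correction (0.34) and with the GC correction (-0.036), and *Nfatc1* with the GC correction (0.27) and with the term for melatonin replicates 2 and 3 (0.35). The cause was not tested. The 20 alternatives include the fit with that term, which says what melatonin replicate 1 shows and not how stable a call is. Among the other genes, the sign turned for *Orai2* with the GC correction (0.058), with the term for melatonin replicates 2 and 3 (0.11) and without melatonin replicate 3 (0.0072, range over samples left out -0.16 to 0.0072), for *Rcan3* with that term (0.044) and for *Smdt1* with the length correction (0.078). For *Ppp3cc* it turned with upper quartile scaling (-0.073), quantile normalization (-0.039), the length correction (-0.033), the GC correction (-0.011), the term (-0.19), and without vehicle replicate 1 (-0.098), melatonin replicate 2 (-0.074) or melatonin replicate 3 (-0.0048), over a range of -0.098 to 0.11. Among the other family and list genes refitted, which leaves out the most alike genes, *Ifng*, *Fasl*, *Xcl1*, *Ccl3* and *Ccl4*, 625 values kept their direction and call, 29 lost the call, 13 gained it and 13 changed direction. Without 1 sample, between 2739 and 3449 genes were higher and between 2711 and 3621 were lower, against 3529 and 3565 in all. The balance moved with the scaling, to 2898 higher and 4126 lower with upper quartile scaling and to 3863 and 3318 with total scaling.

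With the replicate number as a block, 3160 genes were higher and 3278 lower, and no call among the 9 genes changed, while *Camk1* and *Camk4* did not pass (limma adjusted p = 0.0641 and 0.0558). The values gave no sign of pairing by number. Deviations from the group means correlated at -0.054, 0.0064 and -0.048 for same-numbered samples, and no sample correlated best with its own number. All these correlations were weak, between -0.064 and 0.11, and they cannot tell whether same-numbered samples shared animals or a sort. With 3 samples a group, an exact test of 1 gene cannot give a two-sided p below 0.1, and the intervals of *Calm2*, *Nfatc1* and *Nfatc3* leave room for differences of up to 0.29, 0.39 and 0.28 on the log2 scale.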
